A study of Mus musculus with 9 samples.

Results

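The genes described here copy DNA: they license replication origins, unwind the double helix, and build and join the new strands. They were chosen by name as 48 symbols, each read from the brightest transcript cluster that the array annotation gives that symbol alone. Of the 48, 46 were measured, out of 30142 named genes on the array. Mcm7 and Orc5 lie on clusters that also name other genes and are given no value.

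Gene expression was measured in RNA flushed from the lumen of mouse thoracic aortas, labelled as aortic endothelium, the cell layer that faces the blood. ACDiEKO mice carried Cdh5-CreERT2(+) with Mef2a f/f, Mef2c f/f and Mef2d f/f, 3 floxed transcription factor genes of the MEF2 family. Control mice were littermates that lacked the recombinase, Cdh5-CreERT2(-), and carried the same floxed alleles. Both groups were female, were given 5 daily tamoxifen injections at 10 weeks of age, and contributed 5 ng of total RNA from 1 aorta to each array. The Cdh5 promoter drives the recombinase in endothelial cells, and because controls lack it, loss of the MEF2 genes and the recombinase's own effect cannot be told apart. The harvest day, counted from the first tamoxifen injection, is 7 in the series text but 14 in the protocols of the samples, and the files do not settle it.

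The series has 5 ACDiEKO and 4 control arrays. ACDiEKO replicates 1 and 2 were nearly identical: their clusters correlated at 0.9985, where the remaining 15 within-group pairs reached 0.9889 to 0.9931. Both were averaged and counted as 1 sample, so 4 samples per group were compared, and p-values measure the spread between these aortas. Array medians of the deposited log2 values lay between 5.99 and 6.03 in ACDiEKO and between 6.03 and 6.11 in control. Values are given in log2 units of the deposited table, which ran from 2.58 to 19.34. The floxed genes were not called changed: the differences, ACDiEKO minus control, were 0.12 for Mef2a, 0.06 for Mef2c and 0.23 for Mef2d (limma, adjusted p = 0.441, 0.660 and 0.111). Which exons are floxed is not given in the sources used here, so a value for the whole transcript does not check the deletion. The endothelial marker list kept 9 of its 10 genes, and all 9 passed the filter on dim genes.

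A cell copies its genome once per division. The origin recognition complex, CDC6 and CDT1 load the ring-shaped MCM helicase onto DNA, and kinases together with CDC45 and the GINS complex later switch the helicase on. Polymerases alpha, delta and epsilon then copy the strands, PCNA clamps them to DNA, and FEN1 and LIG1 join the fragments of the lagging strand. Endothelial cells of the adult aorta are known to divide rarely, and many replication genes are transcribed mainly in cells that enter S phase, in part through E2F transcription factors.

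Of the 46 measured replication genes, 45 had a positive difference, ACDiEKO minus control, with a median of 0.82, against a median of -0.03 over all tested genes. When limma was run on all 30142 named genes without a filter, 28 of the 46 were called higher at an adjusted p under 0.05 and 0 were called lower. Among all genes in that fit, 3.61% were called higher and 2.92% lower. In the fit of the 16403 genes with at least 4 arrays above the median of the table (6.165), 33 of 45 tested replication genes were called higher and 0 lower, where 8.92% of all tested genes were called higher and 7.33% lower. Every ACDiEKO sample lay above every control sample for 37 of the 46 genes, and for 0 every ACDiEKO sample lay below; over all named genes these shares were 6.94% and 7.47%. Calls below are from the filtered fit unless another is named. Orc1, Fen1 and Rrm2 passed the filter only through ACDiEKO arrays, and Mcm8 did not pass it. Gins1 and Cdt1 had 1 control array each above the filter level and needed ACDiEKO arrays to pass. RNA from the whole lumen was measured, so more cells that express a gene and more RNA per cell cannot be told apart.

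**Figure D1:**
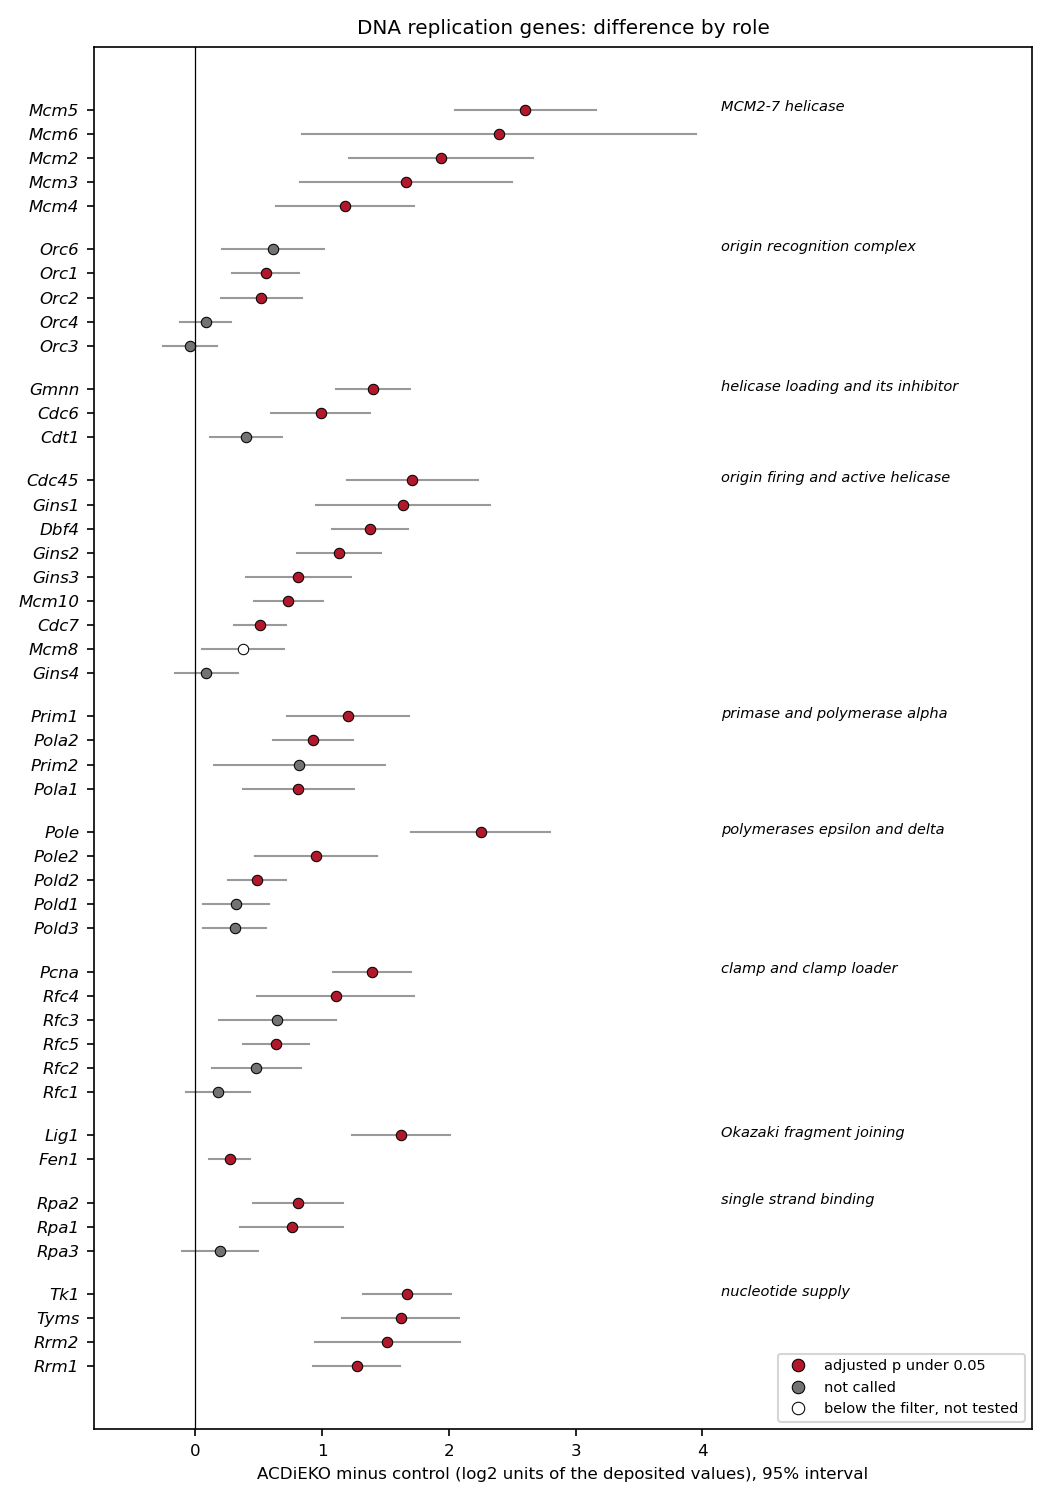
Difference between ACDiEKO and control samples (log2 units of the deposited values, horizontal axis) for each of the 46 measured replication genes, grouped by role; bars are limma's 95% intervals and fill shows the call. The points run from -0.05 for Orc3 to 2.60 for Mcm5, and 33 genes are filled as called.

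The size of the shift differed between aortas. The median over the 46 genes of each ACDiEKO sample's distance above the control mean was 1.00 in the averaged replicates 1 and 2, 0.85 in replicate 3, 1.22 in replicate 4 and 0.57 in replicate 5. ACDiEKO replicate 5 was the lowest of its group for 38 of the 46 genes and replicate 4 the highest for 28. Even so, replicate 5 lay above the highest control for 38 of the 46 genes. Among controls, replicate 3 was highest for 19 genes and replicate 2 lowest for 18.

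**Figure D2:**
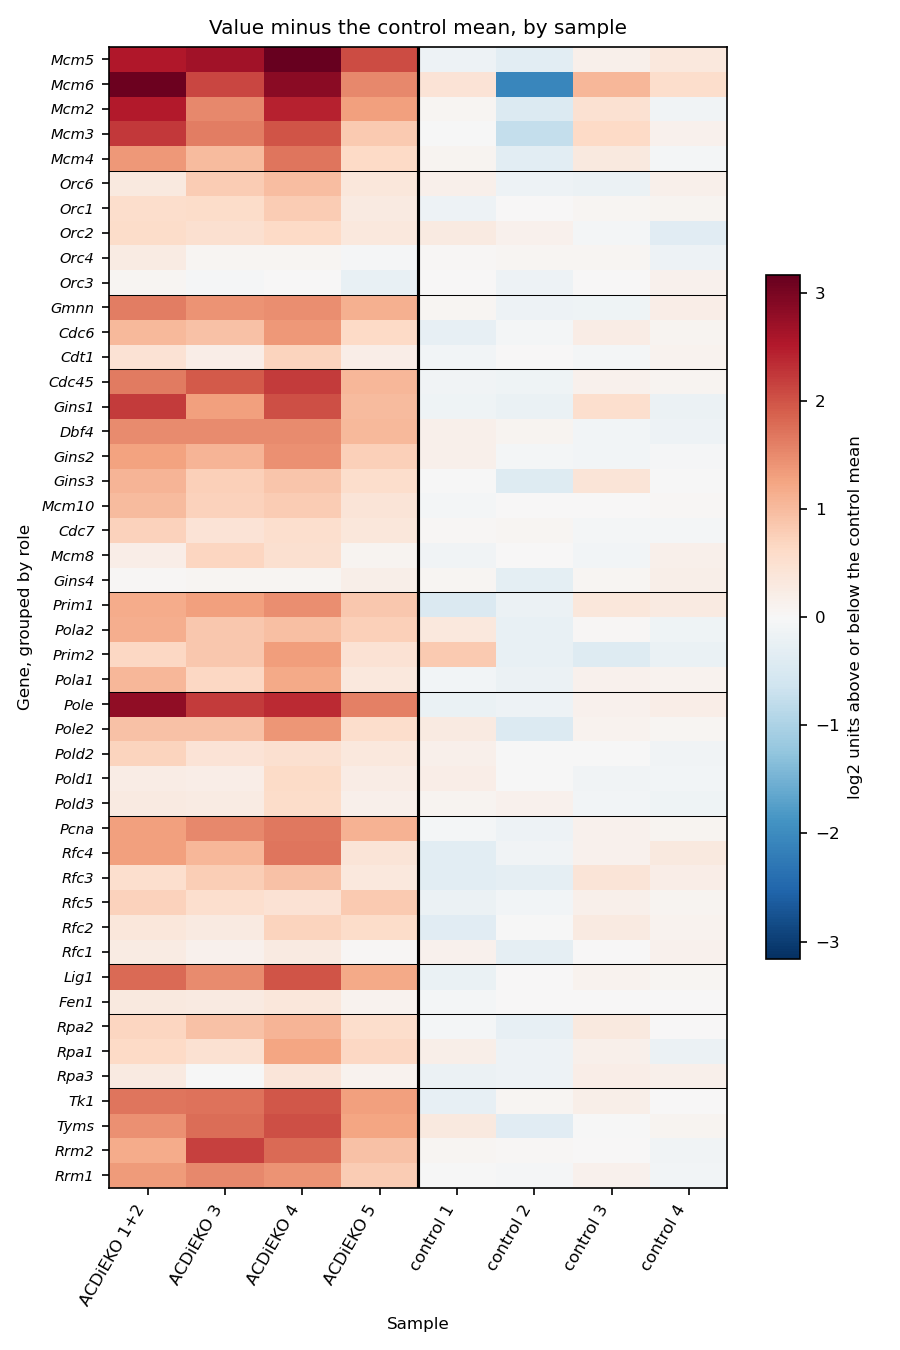
Heat map of each replication gene (rows, grouped by role) in each of the 8 samples (columns, ACDiEKO left), as the value minus the control mean in log2 units. ACDiEKO replicate 5 is the palest of its group in most rows, and the darkest blue cell is Mcm6 in control replicate 2.

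The controls fall into 2 runs of title numbers: replicates 1 and 2 run on from the ACDiEKO numbers, and replicates 3 and 4 do not. What the numbers stand for is not given in the sources used here. With the run as a term in the limma fit, 30 of the 45 genes were called higher: Orc2, Pole2, Pold2, Fen1 and Rpa1 no longer passed (adjusted p from 0.0546 to 0.155), and Rfc2 and Rfc3 did. Against controls 1 and 2 alone, 21 were called higher and 0 lower, and 1 of the 21 had not been called with all controls. The 13 genes that then no longer passed kept a positive difference (adjusted p from 0.0534 to 0.145): Mcm4, Mcm6, Mcm10, Orc1, Orc2, Cdc7, Pola1, Pole2, Pold2, Rfc4, Fen1, Rpa1 and Rrm2. Fewer of all tested genes were also called in both run fits, so the shares over all tested genes given above do not apply to them. The counts over all genes are given with the processing results below. Whether replication genes lost calls more often than all genes was not tested.

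Promoter sequences of 6 genes are shown because they pair genes that differed with genes of the same complex that did not, together with the MCM genes that had the 2 largest differences. Each is the stretch from position -180 to -1 before the RefSeq transcription start (RefSeq, build GRCm38.p6), written 5′ to 3′ on the strand of the gene. Capitals mark the word TTNNCGC with G or C at each N, or its reverse complement, which are versions of the E2F recognition sequence, and overlapping words were each counted. Mcm5 (chr8:75109329-75109508, plus strand) and Mcm6 (chr1:128359706-128359885, minus strand) encode subunits of the helicase ring. Orc1 (chr4:108579274-108579453, plus strand) and Orc3 (chr4:34614943-34615122, minus strand) encode subunits of the origin recognition complex. Rpa2 (chr4:132768180-132768359, plus strand) and Rpa3 (chr6:8259142-8259321, minus strand) encode subunits of the single-strand binding protein.
Mcm5: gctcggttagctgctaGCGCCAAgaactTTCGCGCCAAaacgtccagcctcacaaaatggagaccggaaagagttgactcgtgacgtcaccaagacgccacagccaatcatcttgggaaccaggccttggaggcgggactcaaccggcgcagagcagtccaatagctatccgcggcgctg
Mcm6: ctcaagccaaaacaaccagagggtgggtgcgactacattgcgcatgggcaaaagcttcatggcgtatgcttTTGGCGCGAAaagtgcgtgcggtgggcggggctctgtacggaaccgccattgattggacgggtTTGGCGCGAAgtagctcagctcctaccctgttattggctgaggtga
Orc1: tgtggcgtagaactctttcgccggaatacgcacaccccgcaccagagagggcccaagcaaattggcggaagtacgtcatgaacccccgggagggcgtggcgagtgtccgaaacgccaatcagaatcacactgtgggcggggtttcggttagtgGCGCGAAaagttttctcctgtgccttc
Orc3: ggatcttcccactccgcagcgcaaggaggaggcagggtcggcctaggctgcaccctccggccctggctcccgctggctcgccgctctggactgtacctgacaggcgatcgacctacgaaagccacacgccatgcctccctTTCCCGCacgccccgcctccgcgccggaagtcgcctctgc
Rpa2: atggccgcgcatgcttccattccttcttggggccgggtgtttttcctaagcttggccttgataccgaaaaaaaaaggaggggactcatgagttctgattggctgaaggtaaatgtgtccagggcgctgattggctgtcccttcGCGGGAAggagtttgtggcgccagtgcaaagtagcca
Rpa3: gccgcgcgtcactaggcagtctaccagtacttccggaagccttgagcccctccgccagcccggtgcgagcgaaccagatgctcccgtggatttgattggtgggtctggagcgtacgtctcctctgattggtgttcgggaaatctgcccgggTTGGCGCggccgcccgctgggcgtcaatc

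Mcm6 holds 4 words in this stretch, as 2 overlapping pairs that begin at -109 and -46, and Mcm5 holds 3, which begin at -164, -152 and -149. Orc1, called higher, has a word at -27, and Orc3, not called, has a word at -40. Rpa2, called higher, has a word at -37, and Rpa3, not called, has a word at -29. Other subunits of these complexes were searched in the whole window given in the next paragraph. Orc2 and Rpa1, called higher, held 0 words there, and of the subunits not called, Orc6 held 0 and Orc4 held 1. Whether a word goes with a call was not tested.

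Over the whole RefSeq window, from 250 bases before the start to 50 after, 38 of the 46 genes had a promoter to search. At least 1 E2F word was found in 16 of 28 genes called higher (57.1%) and in 9 of 10 genes that were not called or not tested (90.0%). Among all tested genes with a promoter the share was 18.2%, and among all genes with a promoter it was 10.9%. Genes with several starts were counted where any start held the word. Both shares in replication genes were above those over all genes, with no test made, and the share was not higher in the genes that were called. The 10 others are not a group without differences. Cdt1 (0.40) and Rfc3 (0.65), which hold E2F words, are among them and came close to the threshold. The median GC content was 57.5% in the called genes, 65.3% in the others and 61.3% in all tested genes. The CHR words TTTGAA and TTCGAA, which are known from genes expressed late in the cell cycle, lay in 7 of the 28 and 1 of the 10, against 16.9% of tested genes. The CCAAT box (letters CCAAT) lay in 17 of the 28 and 6 of the 10, against 42.9% of tested genes. The GC box GGGCGG lay in 20 of the 28 and 9 of the 10, against 64.1% of tested genes. The MEF2 consensus was found in 0 of the 28 and 0 of the 10, against 2.34% of tested genes. All motifs were searched on both strands, and a match is a description of the letters only.

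The MCM helicase had the largest median difference of any role, 1.94, and all 5 measured subunits were called higher. Sample values follow in the order averaged replicates 1 and 2, replicate 3, replicate 4 and replicate 5 for ACDiEKO, and replicates 1 to 4 for control. Mcm5 had 10.29, 10.42, 10.93 and 9.83 in ACDiEKO samples, against 7.60, 7.42, 7.93 and 8.11 in control samples. The groups were far apart, with a difference of 2.60 (95% interval 2.05 to 3.16, adjusted p = 0.000676). Mcm2 had 9.93, 8.95, 9.86 and 8.74 in ACDiEKO samples, against 7.49, 7.01, 7.91 and 7.32 in control samples. Its difference was 1.94 (adjusted p = 0.00601), and the averaged pair and replicate 4 stood above the other ACDiEKO samples. Mcm6 had 11.60, 10.62, 11.35 and 10.02 in ACDiEKO samples, against 8.94, 6.45, 9.55 and 9.07 in control samples. The groups did not overlap, but control replicate 2 lay far below the other controls, and the difference of 2.40 had a wide interval of 0.84 to 3.95 (adjusted p = 0.0470). Mcm4 had the smallest difference of the ring, 1.18 (adjusted p = 0.0131), with 10.56, 10.19, 10.88 and 9.81 in ACDiEKO samples and 9.27, 8.84, 9.48 and 9.11 in control samples. Mcm3 differed by 1.66 (adjusted p = 0.0185). The Mcm6 call was lost without the averaged pair, ACDiEKO 3, ACDiEKO 4, control 1 or control 4 (adjusted p from 0.0752 to 0.121) and in the fit without a filter (adjusted p = 0.105), and the Mcm3 call without the averaged pair (0.0504) or ACDiEKO 4 (0.0586).

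The origin recognition complex, which marks the sites where helicases are loaded, had smaller and uneven differences: 2 of 5 measured subunits were called higher. Orc1, its ATPase subunit whose level is known to vary through the cell cycle, had 6.42, 6.44, 6.67 and 6.16 in ACDiEKO samples, against 5.70, 5.88, 5.93 and 5.96 in control samples. The groups did not overlap and differed by 0.55 (adjusted p = 0.0149), though all control values lay under the filter level. In the limma fit without a filter, Orc1 had an adjusted p of 0.0309. Orc2 had 9.93, 9.87, 9.99 and 9.69 in ACDiEKO samples, against 9.63, 9.49, 9.29 and 8.9998 in control samples. ACDiEKO replicate 5 came close to control replicate 1, and the difference was 0.52 (adjusted p = 0.0395). Orc6, a small subunit needed for helicase loading, had 8.90, 9.41, 9.59 and 8.95 in ACDiEKO samples, against 8.77, 8.44, 8.42 and 8.77 in control samples. Its difference of 0.61 was larger than that of Orc1 but just missed the threshold (adjusted p = 0.0502), with the ACDiEKO samples in a high and a low pair.

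Orc3 and Orc4, core subunits of the same complex, had nearly equal values in both groups. Orc3 had 10.47, 10.38, 10.42 and 10.17 in ACDiEKO samples, against 10.41, 10.25, 10.41 and 10.54 in control samples. The groups overlapped, with a difference of -0.05 (95% interval -0.26 to 0.17, adjusted p = 0.769). Orc4 had a difference of 0.08 (interval -0.12 to 0.28, adjusted p = 0.553), and it repeats an exact value, 10.77, in 4 arrays. The Orc2 call was lost without control 2, 3 or 4, the averaged pair, ACDiEKO 3 or ACDiEKO 4 (adjusted p from 0.0579 to 0.107) and in the fit without a filter (0.0784), and Orc6 was called without the averaged pair (0.0441) or ACDiEKO 5 (0.0460).

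Of the genes that load the helicase or restrain its loading, geminin had the largest difference. Gmnn, which encodes geminin, the inhibitor of CDT1 that prevents a second round of loading, had 9.99, 9.79, 9.86 and 9.50 in ACDiEKO samples, against 8.46, 8.23, 8.26 and 8.59 in control samples. The groups were widely separated, with a difference of 1.40 (adjusted p = 0.000627). Cdc6, the ATPase that recruits the helicase to the origin complex, had 7.92, 7.82, 8.29 and 7.54 in ACDiEKO samples, against 6.65, 6.83, 7.15 and 6.99 in control samples. The groups did not overlap, and the difference was 0.99 (adjusted p = 0.00729). Cdt1, which brings the helicase to CDC6, had 6.54, 6.28, 6.79 and 6.28 in ACDiEKO samples, against 5.99, 6.09, 6.02 and 6.19 in control samples. Its ACDiEKO values were all higher, yet replicates 3 and 5 lay close to the top control, and the difference of 0.40 was not called (adjusted p = 0.0622).

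Genes that fire origins and complete the active helicase were called higher for 7 of 8 tested members. Cdc45, which joins the MCM ring to form the working helicase, had 8.90, 9.19, 9.45 and 8.31 in ACDiEKO samples, against 7.14, 7.13, 7.39 and 7.35 in control samples. The groups were well apart, with a difference of 1.71 (adjusted p = 0.00251). Dbf4, the activator of the CDC7 kinase, had 8.32, 8.32, 8.32 and 7.85 in ACDiEKO samples, against 6.98, 6.92, 6.75 and 6.67 in control samples. ACDiEKO replicate 5 was lower than the rest of its group but far above the controls, and the difference was 1.37 (adjusted p = 0.000739). Cdc7, the kinase itself, differed by 0.51 (adjusted p = 0.00777) and Mcm10, which is needed to start unwinding, by 0.73 (adjusted p = 0.00594). Mcm8, whose product is known to act with MCM9 in recombination rather than in origin firing, was not tested in the filtered fit; it had 6.20, 6.67, 6.50 and 6.08 in ACDiEKO samples, against 5.88, 6.01, 5.91 and 6.16 in control samples, and the groups overlapped.

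The 4 GINS subunits, which form a single complex, had unequal differences. Gins1 had 8.50, 7.56, 8.30 and 7.28 in ACDiEKO samples, against 6.14, 6.05, 6.81 and 6.08 in control samples. Its difference was 1.64 (adjusted p = 0.00928), with replicates 3 and 5 lower in ACDiEKO and replicate 3 higher in control than the rest of their groups. Only 1 of its control arrays was above the filter level, and its adjusted p was 0.0271 in the limma fit without a filter. Gins4 had 10.87, 10.91, 10.90 and 11.01 in ACDiEKO samples, against 10.90, 10.53, 10.90 and 11.02 in control samples. The groups overlapped, and the difference of 0.09 (interval -0.16 to 0.34) was not called (adjusted p = 0.616). Gins4 repeats an exact value, 10.90, in 3 arrays. Gins2 differed by 1.13 (adjusted p = 0.00227) and Gins3 by 0.81 (adjusted p = 0.0190). The mean of Gins1, Gins2 and Gins3 minus Gins4 shifted by 1.11 between ACDiEKO and control samples, a contrast picked after the values were seen and given without a test. The Gins3 call was lost without control 4 (adjusted p = 0.0516), the averaged pair (0.0532) or ACDiEKO 4 (0.0575).

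**Figure D3:**
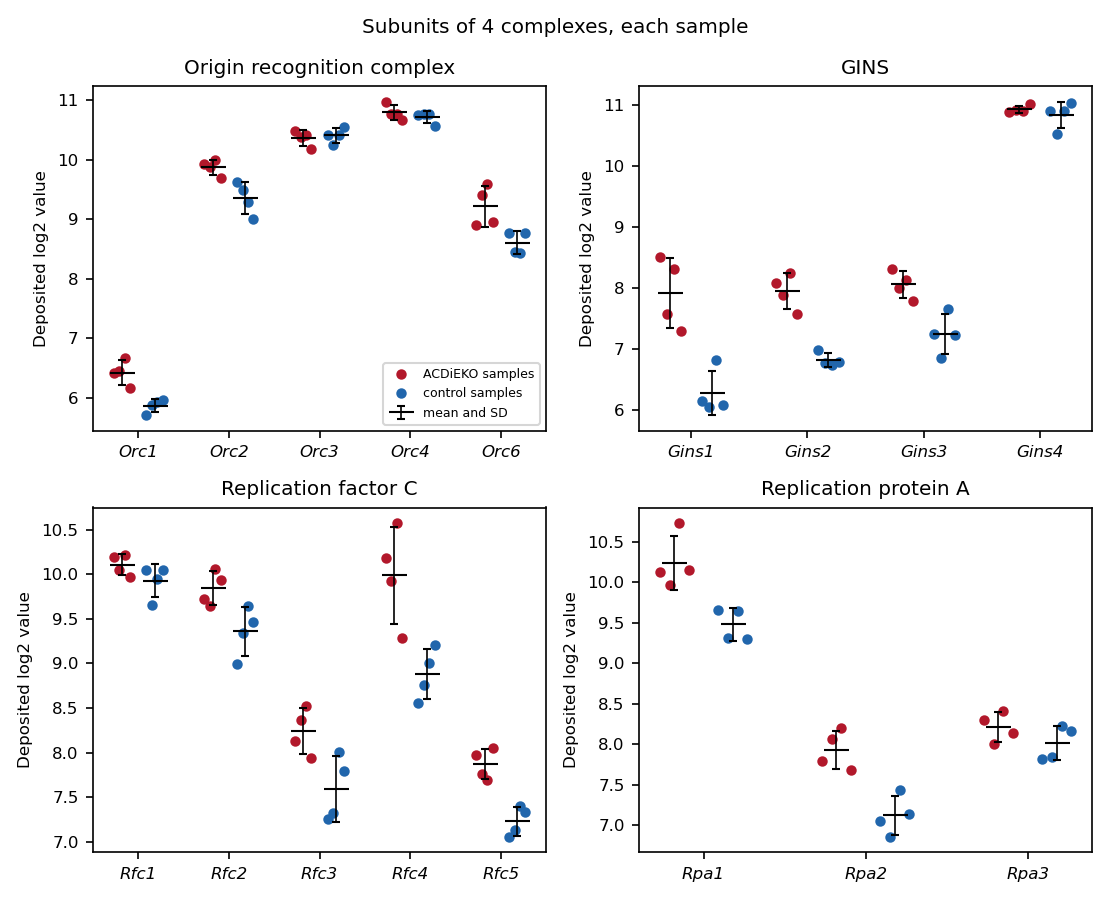
Deposited log2 values (vertical axes) of the subunits of 4 complexes in each sample, ACDiEKO left of control for each gene; black marks are the mean and SD of 4 samples. Orc3, Orc4, Gins4, Rfc1, Rfc2, Rfc3 and Rpa3 overlap between groups, and the other subunits shown do not.

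Polymerase alpha and its primase, which lay down the primers, were called higher for 3 of 4 genes. Prim1, the catalytic primase subunit, had 9.74, 9.85, 10.04 and 9.42 in ACDiEKO samples, against 8.09, 8.38, 8.92 and 8.84 in control samples. The groups did not overlap, and the difference was 1.21 (adjusted p = 0.00756). Pola2, the regulatory subunit of polymerase alpha, had 9.85, 9.55, 9.66 and 9.47 in ACDiEKO samples, against 9.03, 8.48, 8.74 and 8.56 in control samples, a difference of 0.93 (adjusted p = 0.00423). Pola1, the catalytic subunit, had 9.11, 8.71, 9.24 and 8.38 in ACDiEKO samples, against 7.96, 7.87, 8.19 and 8.17 in control samples. ACDiEKO replicate 5 was closest to the controls, and the difference was 0.81 (adjusted p = 0.0238). Prim2, the large primase subunit, had 9.69, 9.88, 10.35 and 9.48 in ACDiEKO samples, against 9.85, 8.80, 8.62 and 8.83 in control samples. Control replicate 1 lay among the ACDiEKO samples, and the difference of 0.82 was not called (adjusted p = 0.0949). Prim2 was called without control 1, with a difference of 1.10 (adjusted p = 0.0157), and the Pola1 call was lost without control 1 or 2, the averaged pair or ACDiEKO 4 (adjusted p from 0.0572 to 0.0645) and in the fit without a filter (0.0558).

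Polymerase epsilon, the leading-strand enzyme, had larger differences in Pole and Pole2 than polymerase delta, the lagging-strand enzyme, had in Pold1, Pold2 and Pold3. Pole, its catalytic subunit, had 9.39, 8.80, 8.94 and 8.18 in ACDiEKO samples, against 6.38, 6.42, 6.72 and 6.78 in control samples. The gap was wide, with a difference of 2.25 (interval 1.70 to 2.80, adjusted p = 0.00109). Pole2, its second subunit, had 9.52, 9.51, 10.00 and 9.14 in ACDiEKO samples, against 8.87, 8.15, 8.70 and 8.65 in control samples, a difference of 0.95 (adjusted p = 0.0184). Among delta subunits, Pold2 had 10.19, 9.91, 9.99 and 9.81 in ACDiEKO samples, against 9.64, 9.46, 9.47 and 9.37 in control samples, a difference of 0.49 (adjusted p = 0.0139). Pold3 had 10.58, 10.56, 10.88 and 10.46 in ACDiEKO samples, against 10.39, 10.43, 10.23 and 10.18 in control samples. The groups lay just apart, and its difference of 0.31 was not called (adjusted p = 0.0873). Pold1, the catalytic subunit of delta, differed by 0.32 and was not called (adjusted p = 0.0935). The mean of Pole and Pole2 minus the mean of Pold1, Pold2 and Pold3 shifted by 1.23 between ACDiEKO and control samples, again a contrast picked after the values were seen. It leaves out the epsilon subunits Pole3 (0.49) and Pole4 (0.56), which differed about as much as Pold2, and the delta subunit Pold4 (-0.31).

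The sliding clamp was called higher, and its loader was called for 2 of 5 subunits. Pcna, the ring that tethers polymerases to DNA, had 13.61, 13.84, 14.00 and 13.41 in ACDiEKO samples, against 12.27, 12.17, 12.46 and 12.40 in control samples. The groups were well apart, and the difference was 1.39 (adjusted p = 0.000768). Rfc4, a small subunit of the loader, had 10.18, 9.92, 10.57 and 9.28 in ACDiEKO samples, against 8.56, 8.76, 9.01 and 9.20 in control samples. ACDiEKO replicate 5 lay only just above the highest control, and the difference was 1.11 (adjusted p = 0.0275). Rfc3 had 8.13, 8.37, 8.52 and 7.94 in ACDiEKO samples, against 7.25, 7.32, 8.01 and 7.79 in control samples. The groups overlapped through ACDiEKO replicate 5 and control replicate 3, and the difference of 0.65 was not called (adjusted p = 0.0634). Rfc1, the large subunit, had 10.19, 10.05, 10.22 and 9.97 in ACDiEKO samples, against 10.05, 9.66, 9.95 and 10.05 in control samples. These overlapped, with a difference of 0.18 (adjusted p = 0.290), and Rfc1 repeats an exact value, 10.05, in 3 arrays. Rfc5 differed by 0.64 and was called (adjusted p = 0.00825), and Rfc2 differed by 0.48 and was not (adjusted p = 0.0685). The Rfc4 call was lost without control 1, 2 or 3, the averaged pair, ACDiEKO 3 or ACDiEKO 4 (adjusted p from 0.0553 to 0.0730) and in the fit without a filter (0.0662), and Rfc3 was called without control 3 (0.0385).

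Both enzymes that finish lagging-strand fragments were called higher, by very different amounts, and Fen1 was tested only through ACDiEKO arrays. Lig1, the ligase that seals the nicks, had 9.94, 9.66, 10.15 and 9.36 in ACDiEKO samples, against 7.96, 8.17, 8.28 and 8.22 in control samples. The groups were far apart, with a difference of 1.62 (adjusted p = 0.00102). Fen1, the flap nuclease, had 6.26, 6.23, 6.31 and 6.06 in ACDiEKO samples, against 5.89, 5.97, 5.97 and 5.95 in control samples. All values lay near the filter level, the groups did not overlap, and the difference was 0.27 (adjusted p = 0.0377). The Fen1 call was lost without any of control 1 to 4, the averaged pair, ACDiEKO 3 or ACDiEKO 4 (adjusted p from 0.0653 to 0.0964). Fen1 was called in the limma fit without a filter (adjusted p = 0.0357).

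Replication protein A coats the single strands exposed by the helicase, and 2 of its 3 subunits were called higher. Rpa2 had 7.80, 8.06, 8.20 and 7.68 in ACDiEKO samples, against 7.06, 6.86, 7.43 and 7.14 in control samples, a difference of 0.81 (adjusted p = 0.0107). Rpa1, the large subunit, had 10.12, 9.96, 10.73 and 10.15 in ACDiEKO samples, against 9.66, 9.31, 9.65 and 9.30 in control samples. ACDiEKO replicate 4 was the highest, and the difference was 0.76 (adjusted p = 0.0234). Rpa3 had 8.30, 7.998, 8.41 and 8.14 in ACDiEKO samples, against 7.82, 7.85, 8.23 and 8.17 in control samples. The groups overlapped, and the difference of 0.20 (interval -0.10 to 0.50) was not called (adjusted p = 0.337). The Rpa1 call was lost without control 2 (adjusted p = 0.0611) or control 4 (0.0659) and in the fit without a filter (0.0540).

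All 4 genes of deoxynucleotide supply were called higher. Tk1, the cytosolic thymidine kinase, had 8.58, 8.61, 8.86 and 8.19 in ACDiEKO samples, against 6.63, 6.95, 7.06 and 6.90 in control samples. Tyms, which makes thymidylate, had 11.10, 11.43, 11.70 and 10.90 in ACDiEKO samples, against 9.96, 9.30, 9.64 and 9.75 in control samples. Neither gene overlapped between groups, and the differences were 1.67 for Tk1 and 1.62 for Tyms (adjusted p = 0.000627 and 0.00212). Rrm2, the small subunit of ribonucleotide reductase, had 6.73, 7.72, 7.35 and 6.50 in ACDiEKO samples, against 5.62, 5.60, 5.57 and 5.45 in control samples. Its difference was 1.51 (adjusted p = 0.00621), with ACDiEKO replicate 3 the highest, and no control array was above the filter level. In the limma fit without a filter, Rrm2 had an adjusted p of 0.0193. Rrm1, the large subunit, had 9.93, 10.11, 10.02 and 9.41 in ACDiEKO samples, against 8.58, 8.55, 8.72 and 8.52 in control samples, a difference of 1.27 (adjusted p = 0.00180).

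Other genes that work around the fork were counted in the same way, beside the 8.92% called higher and 7.33% called lower among all tested genes. Fork protection genes were called higher for 4 of 7, among them Wdhd1, which links the helicase to polymerase alpha (difference 1.49), Mms22l, which protects stalled forks (1.39), and Clspn, a checkpoint mediator at the fork (1.34). Origin firing accessories were called higher for 3 of 6: Topbp1 (1.19), Mtbp (0.98) and Ticrr (0.81), which help to bring CDC45 to origins. Ticrr, and Dna2, Polq and E2f8 named below, had no control array above the filter level and were tested only through ACDiEKO arrays. In the limma fit without a filter these genes were also called higher (adjusted p = 0.0290, 0.0153, 0.0247 and 0.00211). Clspn had 2 control arrays above the filter level, and Dscc1, named below, had 3. Small polymerase and alternative clamp loader subunits were called higher for 4 of 8, with Dscc1 at 1.73, Atad5, which unloads PCNA, at 0.77 and Pole4 at 0.56. Primer removal genes were called higher for 2 of 5, the nuclease Dna2 (0.53) and Rnaseh2a (0.50), while Rnaseh2b had a difference of 0.46 that was not called. Chromatin assembly genes were called higher for 6 of 8, led by the histone chaperone Asf1b (2.99), and including Uhrf1 (1.21), which brings DNMT1 to new DNA, and Chaf1a (0.88), a subunit of the CAF chaperone.

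Among other nucleotide supply genes, 6 of 10 were called higher and 1 lower. Ctps, which makes CTP, differed by 2.75, Umps, which makes UMP, by 0.91 and Dck, the deoxycytidine kinase, by 0.87. For Ctps the controls split by run of title numbers, with 11.06 and 11.30 in replicates 1 and 2 and 9.66 and 9.88 in replicates 3 and 4. Its ACDiEKO samples had 13.47, 13.02, 13.87 and 12.53. The gene called lower was Tk2, the mitochondrial thymidine kinase (-0.64, adjusted p = 0.0495), which was not called without a filter (0.101), where the list had 4 called higher and 0 lower. Replication checkpoint genes were called higher for 3 of 7, the kinases Chek1 (1.43) and Atr (0.66) and the clamp gene Rad9a (0.50), of which 1 was called in the fit without a filter. Genes that replicate mitochondrial DNA were called higher for 0 of 6 and lower for 1: Polg2, the accessory subunit of the mitochondrial polymerase (-0.53, adjusted p = 0.0338), which was not called without a filter. Its groups met at the same value, 7.61, in the averaged ACDiEKO pair and control replicate 2. Tfam and Mgme1, which package and process mitochondrial DNA, had differences of 0.13 and 0.12 that were not called. Repair and translesion enzymes were called higher for 2 of 11, Polh (1.03) and Polq (0.74), and lower for 1, Polk (-0.84). Cell division genes that cross this set were called higher for 9 of 10, with Mki67 at 5.68, Top2a at 4.09 and E2f8 at 2.74.

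**Figure D4:**
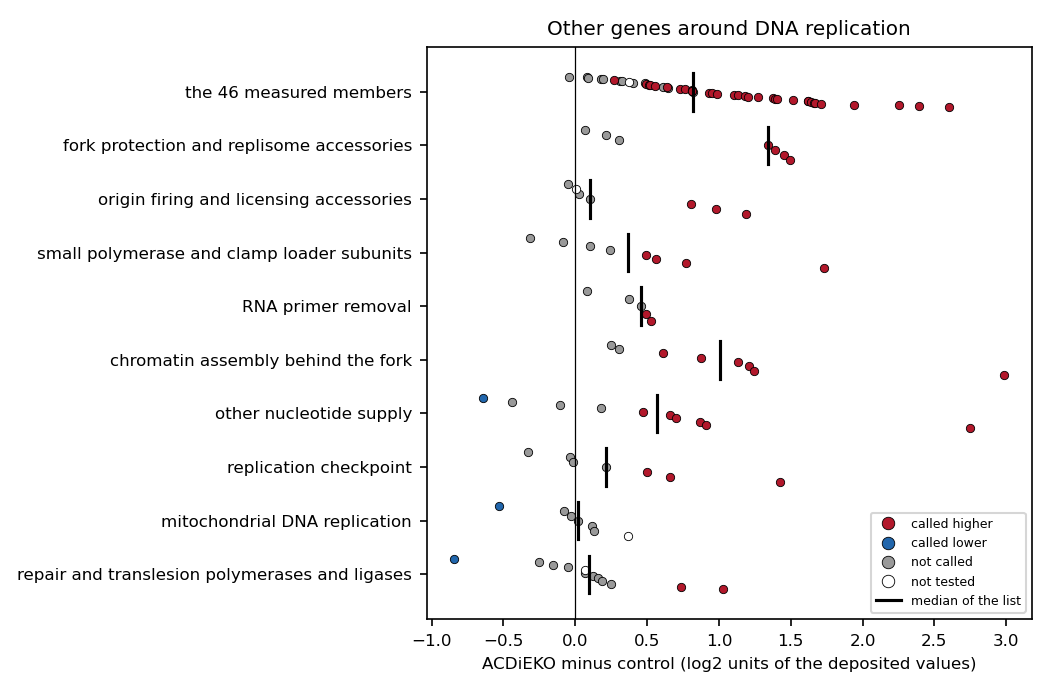
Difference between ACDiEKO and control samples (log2 units, horizontal axis) for the 46 replication genes and 9 lists of genes around them; each point is a gene, fill shows the call and the vertical bar is the list's median. The medians run from 0.02 for mitochondrial DNA replication to 1.34 for fork protection.

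Markers of other cell types were read beside these results. The mean of 11 smooth muscle markers lay between 9.82 and 10.82 in ACDiEKO samples and between 8.39 and 9.42 in control samples, without overlap (summed level 108 to 119 against 92.3 to 104). This mean was 9.42 and 8.96 in control replicates 1 and 2. It was lower, 8.39 and 8.55, in replicates 3 and 4, the other run of title numbers. Of 10 tested, 7 were called higher: Tagln (difference 3.82), Myl9 (3.68), Acta2 (3.19), Synpo2 (2.15), Smtn (2.04), Lmod1 (0.98) and Tpm2 (0.90). The other 3, Mylk (0.43), Myh11 (-0.04) and Cnn1 (-0.27), were not called. The mean of 8 leukocyte markers lay between 7.04 and 9.33 in ACDiEKO samples and between 6.71 and 7.55 in control samples (summed level 56.3 to 74.6 against 53.7 to 60.4), and 0 of 7 tested were called. The highest leukocyte mean, 9.33, was in ACDiEKO replicate 5, whose mean over the replication genes, 8.75, was the lowest of the ACDiEKO samples and above every control (7.92 to 8.23). Without that sample 34 of the replication genes were called higher. Endothelial markers averaged 13.21 to 13.82 in ACDiEKO samples and 13.50 to 13.94 in control samples, but single markers went both ways: of 9, Emcn (3.72) and Kdr (0.96) were called higher, and Cldn5 (-3.59), Tek (-1.92) and Pecam1 (-0.37) lower. Mesothelial markers averaged 6.28 to 8.43 in ACDiEKO samples and 5.95 to 7.13 in control samples, and 0 of 3 tested were called. Fibroblast markers averaged 8.36 to 9.27 in ACDiEKO samples and 8.84 to 9.26 in control samples. Of 6 tested, 1 was called, Pi16, which was lower (-2.41). Brown fat markers averaged 7.65 to 10.53 in ACDiEKO samples and 8.98 to 11.65 in control samples, and 0 of 5 were called. The lowest brown fat mean, 7.65, was in ACDiEKO replicate 4. The part of RNA from other cell types in the replication results was not tested.

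**Figure D5:**
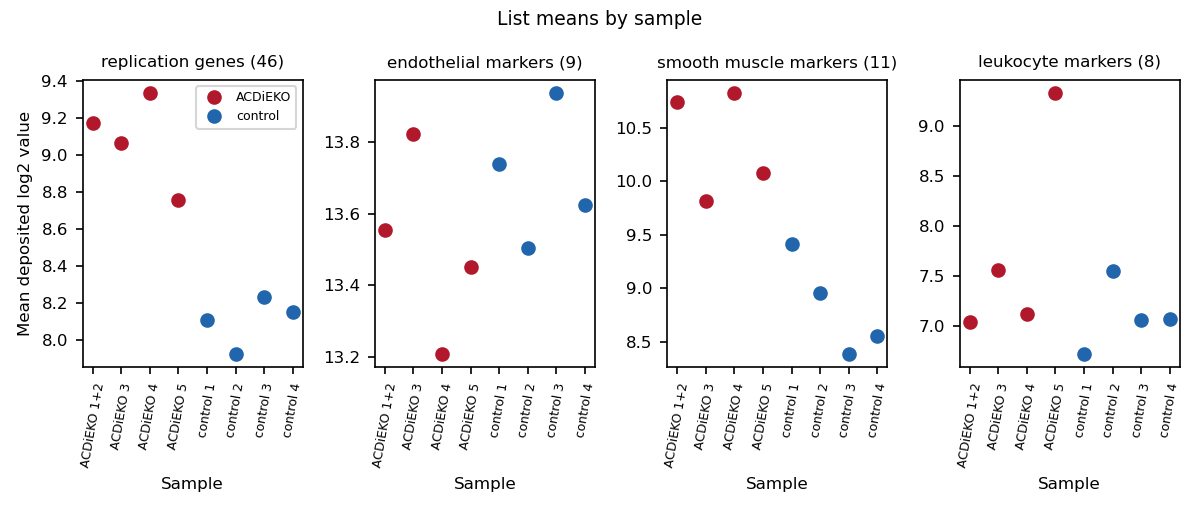
Mean deposited log2 value per sample (vertical axes, which differ between panels) of the 46 replication genes and of 3 marker lists, ACDiEKO left of control. The replication genes and smooth muscle markers separate the groups, and the leukocyte mean is highest in ACDiEKO replicate 5.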

How the data were processed

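The deposited values are log2 values per transcript cluster that the authors made with RMA, per the submitters' processing notes, which give no version. The genome build and annotation of the clusters are not given in the sources used here. Of 72688 features, 6732 array controls were left out; 30604 of the 65956 clusters had 1 symbol, 2146 had several and 33206 had none listed, and 827 symbols were updated through gene IDs. The brightest cluster per symbol was kept (30142 genes). Genes with at least 4 arrays above the table's median of 6.165 were tested (16403) in R 4.3.3 by limma 3.58.1 (functions lmFit and eBayes, two-sided, Benjamini-Hochberg at 0.05), with ACDiEKO replicates 1 and 2 averaged and no covariate. The steps were tested on simulated data. For arrays, their number limits the precision.

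Both later control titles carry the number 3, and 1 of them was renamed replicate 4. Deviations from group means of arrays that share a title number correlated at -0.0049, -0.145, 0.0353 and 0.0413 across genes, so title numbers were not used as pairs. The genes, lists and alternatives were chosen with earlier results of these data known. Values in every sample were given, in each role, for up to 3 genes with the largest absolute difference and the gene with the smallest; of other lists the 3 genes with the smallest p were named, and other genes were chosen after their values were seen. Alternatives were the filter, array weights, centring on array medians, averaging a gene's clusters, quantile normalization, a robust fit with an intensity trend, all 9 arrays as samples with and without a replicate block, the run of title numbers, other thresholds and leaving out each sample; a filter on control arrays alone was added after seeing the data. Ssrp1, Atrip and Primpol have no value of their own here. Promoters came from RefSeq tables of GRCm38.p6; 6 of the genes matched have several starts there.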

Additional observations from a re-analysis of the deposited data

Results flagged for a closer look

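In 5 of 92 groups of 4 samples, a sample stood apart from the rest of its group for a replication gene by a gap large for the group's range; chance flags about 1 in 20 groups, which is 4.6 here. Dbf4, the activator of the CDC7 kinase, was 7.85 in ACDiEKO replicate 5, against 8.32 in each of the other ACDiEKO samples, which agree to 2 decimals. Pold1 was 7.82 in ACDiEKO replicate 4, against 7.44 to 7.47 in the others. Prim2 was 9.85 in control replicate 1, against 8.62 to 8.83 in the other controls, and this is the sample whose omission brings Prim2 past the threshold. Gins1 was 6.81 in control replicate 3, against 6.05 to 6.14. Orc4 was 10.56 in control replicate 4, against 10.75 to 10.77.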

How the results depend on the processing

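The count of replication genes called lower was 0 under every alternative run, and 20 of the 45 tested genes kept direction and call under every alternative that tested them, among them Orc4, Rfc1 and Rpa3, which were never called. The stricter filter tested 29 of the genes and the filter on control arrays 40. The count called higher, 33, was 21 against only the controls of the same run of title numbers and 20 at an adjusted p under 0.01, and leaving out each sample gave 26 to 34. It was 32 in the fit of all 9 arrays with the replicate block and 37 without the block. Of all 16403 tested genes, these fits called 2351 and 3710 in either direction. Between these fits the block lost Mcm6 (adjusted p = 0.0635), Orc2 (0.0610), Orc6 (0.119), Cdt1 (0.101) and Rfc2 (0.152). With the filter applied to control arrays only, chosen after seeing the data, 30 of 40 replication genes were called higher. Of all 15600 genes that passed this filter, 2544 were called in either direction. The number of all genes called, 2666, was 1692 with the run as a term, 1127 against controls of the same run, 1035 at 0.01 and 4045 at 0.1, and leaving out each sample gave 1680 (without ACDiEKO 4) to 2465. The cause was not tested, except that fewer samples or another threshold enter by construction. Orc3 changed sign, to 0.043 with the replicate block and 0.027 with the run as a term or against controls of the same run, and leaving out each sample gave -0.097 to 0.017 (without ACDiEKO 5). Leaving out each sample gave -0.015 (without control 2) to 0.149 for Gins4. Neither gene was called in any of these. Signal over background limits Orc1, Fen1, Rrm2 and Mcm8, whose control arrays all lay below the filter level. Gins1 and Cdt1 had 1 control array each above it. Orc4, Gins4 and Rfc1 repeat an exact value in at least 3 arrays, as do 27.1% of tested genes. Of these 3 replication genes, 0 were called.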
